A study of Homo sapiens with 5 samples.

Results

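PENK, NPY, NEFM, SLITRK5, ELAVL2 and TENM3 are 6 genes of neurons that carried an H3K9me3 peak in the KD list, out of 20037 protein-coding genes in the RefSeq table used. They were chosen from the peak lists themselves. SLITRK5, PENK, NPY and NEFM came from genes with a KD peak, no EV peak and a large share of the gene covered, and ELAVL2 and TENM3 were named with them as marked in the KD list. The presence of a KD peak in the 6 genes, its absence from other lists and the covered share are therefore descriptions and not results. All 6 were found in the table, and every peak in each gene and within 50 kb of its ends was collected from the 3 deposited peak lists. A KD peak with no peak of either other list in the gene was found in 5 of the 6. TENM3 carried EV peaks as well, and 1 of its KD peaks was shared with EV.

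The study measured trimethylation of histone H3 lysine 9 (H3K9me3) by chromatin immunoprecipitation and sequencing in HEK293T, a human embryonic kidney line that expresses the SV40 large T antigen. The groups used here are H3K9me3 libraries of HEK293T cells with the genotype EV and with the genotype KD, each with 1 library. The labels do not spell out EV, which is read here as an empty-vector control, and the design names KCNQ1OT1_K as the target of KD, without saying what the suffix means or how the knockdown was made. A further list carries no genotype in its name and was matched to no sample, and it is called the list without genotype. An H3K9me3 library of WT cells and inputs of WT and EV are also described, and no list is named for them. No input of KD is described.

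H3K9me3 is placed by methyltransferases such as SETDB1 and SUV39H1 and is bound by the HP1 proteins, which compact chromatin and keep genes silent. In cells outside the nervous system, many neuronal genes are kept silent by the repressor REST and by repressive chromatin marks. PENK encodes proenkephalin, the precursor of the enkephalins, which act on opioid receptors. NPY encodes neuropeptide Y, a transmitter that stimulates feeding. NEFM encodes the medium neurofilament subunit, a part of the axonal cytoskeleton. SLITRK5 and TENM3 encode membrane proteins that act in synapse formation and in the wiring of circuits. ELAVL2 encodes HuB, a neuronal protein that binds AU-rich elements of mRNAs. HEK293 lines have been described as expressing some neuronal genes, among them neurofilament genes, and no RNA level was measured in these files.

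The promoter sequences nearest to the KD peaks of NPY, ELAVL2 and SLITRK5 are shown because these genes differ in how close the peak came to a start of transcription. Each runs 5′ to 3′ over 300 bases, 250 before a start of transcription and 50 from it on, from RefSeq on GRCh38.p14, and capitals mark every CG dinucleotide. The NPY window is chr7:24283940-24284239 on the plus strand. The ELAVL2 window is chr9:23821107-23821406 on the minus strand. The SLITRK5 window is chr13:87672974-87673273 on the plus strand.
NPY: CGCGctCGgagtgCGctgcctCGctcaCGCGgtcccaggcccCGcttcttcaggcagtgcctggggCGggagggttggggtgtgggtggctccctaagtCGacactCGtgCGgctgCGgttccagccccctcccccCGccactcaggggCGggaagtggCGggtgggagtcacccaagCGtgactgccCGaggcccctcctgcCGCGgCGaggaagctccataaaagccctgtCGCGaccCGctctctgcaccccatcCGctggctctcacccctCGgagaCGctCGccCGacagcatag
ELAVL2: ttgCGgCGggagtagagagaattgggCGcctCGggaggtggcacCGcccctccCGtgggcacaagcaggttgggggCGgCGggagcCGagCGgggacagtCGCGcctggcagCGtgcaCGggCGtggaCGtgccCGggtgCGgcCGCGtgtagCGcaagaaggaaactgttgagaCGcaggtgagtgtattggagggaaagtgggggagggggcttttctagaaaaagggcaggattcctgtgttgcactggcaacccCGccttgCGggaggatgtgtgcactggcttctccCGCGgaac
SLITRK5: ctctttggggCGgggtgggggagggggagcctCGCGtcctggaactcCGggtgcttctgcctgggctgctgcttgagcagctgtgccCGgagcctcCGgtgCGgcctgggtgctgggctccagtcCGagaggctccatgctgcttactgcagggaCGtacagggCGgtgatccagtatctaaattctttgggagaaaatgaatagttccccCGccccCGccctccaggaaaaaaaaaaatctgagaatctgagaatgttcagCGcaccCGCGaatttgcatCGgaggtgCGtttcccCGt

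Base 251 of each window is the annotated start. In ELAVL2 the KD peak covered bases 250 to 300 of the printed window, 51 bases with 4 of its CG dinucleotides, and went on downstream. In NPY the window held no base of a peak, and the KD peak began 26 bases after its end. In SLITRK5 the window ended 3022 bases before the KD peak.

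Each printed window held more CG than the median window. CG is a letter pair that reads the same on both strands, and it was present in 96.0% of 35116 windows of this length. The NPY window held 29, and 24.2% of all windows had as many or more. The ELAVL2 window at the peak held 26, a number reached by 30.1% of windows, and the SLITRK5 window nearest to the peak held 18, reached by 44.5%. The median over all windows was 14. Windows were present for 4 of the 6 genes, NPY, SLITRK5, ELAVL2 and TENM3, with 12 windows in all. Their CG counts ran from 11 to 40, so 11 of the 12 windows were at or above the median of all windows. Of these windows, the ELAVL2 one printed above was overlapped by a KD peak, and none was overlapped by a peak of EV or of the list without genotype. How a CG count relates to a peak was not tested.

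**Figure D1:**
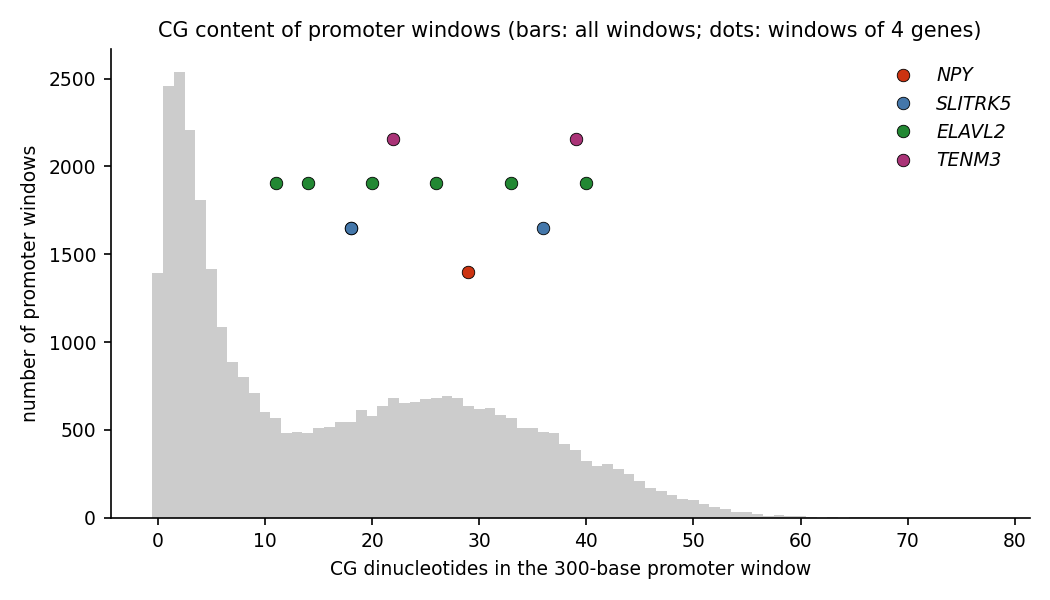
CG dinucleotides per 300-base promoter window (x axis) against the number of windows (y axis), over 35116 RefSeq windows (grey bars). Dots give the windows of NPY, SLITRK5, ELAVL2 and TENM3, at heights that carry no value, with 2 SLITRK5 windows sharing the dot at 18, and they lie between 11 and 40.

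Across all 6 genes, the KD list held 7 peaks within 50 kb, and all 7 lay inside the gene bodies. The EV list held 5 such peaks, 4 of them inside TENM3 and 1 outside PENK. The list without genotype held 0 in these windows. A KD peak lay in 6 of 6 gene bodies, an EV peak in 1 and a peak of the list without genotype in 0. Among all protein-coding genes, 11.5% had a KD peak in the gene body, 24.5% an EV peak and 7.26% a peak of the list without genotype. A KD peak with neither other in the gene, the pattern of 5 of the 6, was found in 286 of 20037 genes (1.43%). Since the genes were chosen on this pattern, nothing is read from these counts.

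**Figure D2:**
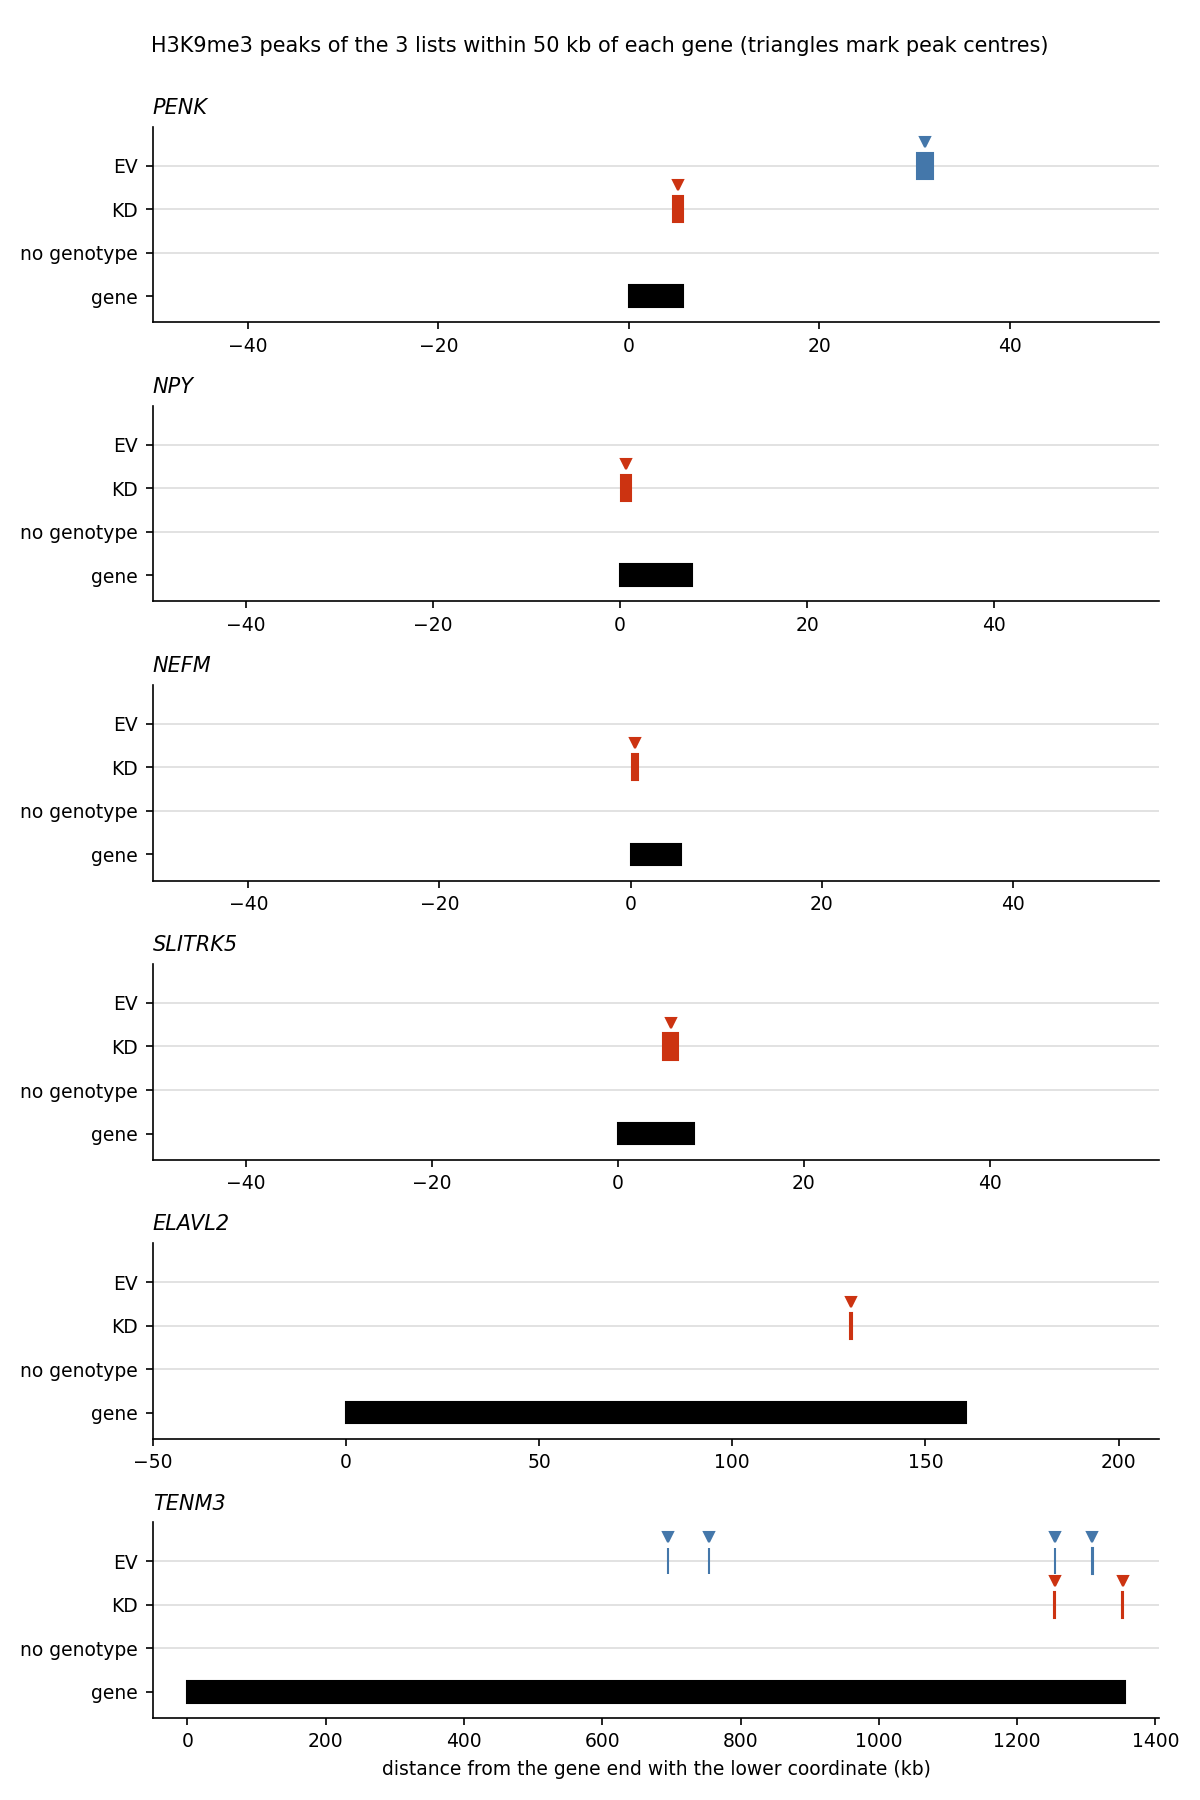
Peaks of the EV list (blue), the KD list (red) and the list without genotype (no peak drawn) within 50 kb of each gene (black bar), in kb from the gene end with the lower coordinate. Bars are to scale with a thin outline that keeps narrow peaks visible, and triangles mark peak centres. The 7 KD peaks all lie inside genes, at the edge of PENK, NPY and NEFM.

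The 3 lists differ in size, which bears on every absence below. On chromosomes 1 to 22, X and Y they held 24665 peaks (EV), 12650 (KD) and 14362 (list without genotype). The read depth behind each list is unknown. With 1 library per group there is no replicate check, and no test between lists was made. A gene without a peak in a list is one where no peak passed the authors' threshold, and signal below that threshold cannot be seen. The weakest peaks listed had a −log10 p of 2.92 in EV, 3.31 in KD and 3.22 in the list without genotype. These are values of the authors' peak caller, and the background it used for each list is not given. An input is described for WT and for EV, and none for KD. Fold enrichment and −log10 p are therefore used to place a peak within its own list, and no difference is read between lists.

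PENK spans 56440957 to 56446641 on chromosome 8 (GRCh38), 5685 bp, and is transcribed toward lower coordinates. Its KD peak lay at 56445609 to 56446601, 993 bp wide, and ended 40 bp inside the gene end with the higher coordinate, which is the 5′ end. The peak covered 17.5% of the gene, with 4.46-fold enrichment at a −log10 p of 5.54. PENK-AS1, a non-coding gene on the same stretch, shared 795 bp with the peak. The EV list had a peak at 56471159 to 56472939, in PENK-AS1 and 24.5 kb beyond the 5′ end of PENK. That EV peak was 1781 bp wide, had 3.09-fold enrichment at a −log10 p of 3.62, and no KD peak overlapped it. The 2 lists thus marked different places around PENK, 24.6 kb apart. The nearest peak of the list without genotype was 624 kb from the gene.

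NPY spans 24284190 to 24291862 on chromosome 7, 7673 bp, on the plus strand. Its KD peak, 24284266 to 24285383, began 76 bp after the annotated start and was 1118 bp wide. It covered 14.6% of the gene, with 4.53-fold enrichment at a −log10 p of 5.55, close to the values of the PENK peak. The long non-coding gene LOC107986777 spans the whole of NPY and of the peak. The EV list had no peak within 50 kb, and its nearest one lay 138 kb from the gene. The nearest peak of the list without genotype lay 280 kb away.

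NEFM spans 24913761 to 24919093 on chromosome 8, 5333 bp, and is transcribed toward higher coordinates. Its KD peak, 24913890 to 24914515, began 129 bp after the gene end with the lower coordinate, the 5′ end. It was 626 bp wide, covered 11.7% of the gene, and had 3.81-fold enrichment at a −log10 p of 4.45. No other RefSeq gene overlapped it. The nearest EV peak was 175 kb from the gene and the nearest peak of the list without genotype 658 kb. NEFL, the light neurofilament gene, lies 31.9 kb further along and had no peak in any list.

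SLITRK5 spans 87671371 to 87679616 on chromosome 13, 8246 bp, on the plus strand. Here the peak was not at the start: it lay at 87676296 to 87677889, 3072 bp downstream of the nearest of 3 annotated starts and 1727 bp before the 3′ end. It was the widest of the 7 KD peaks, 1594 bp, and covered 19.3% of the gene, while its fold enrichment of 3.44 and −log10 p of 4.33 were the lowest of the 7. The nearest EV peak, 74.3 kb from the gene, had 4.77-fold enrichment at a −log10 p of 8.99. The list without genotype had no peak within 349 kb.

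ELAVL2 spans 23690104 to 23850601 on chromosome 9, 160498 bp, on the minus strand. Its KD peak, 23820651 to 23821157, was the narrowest of the 7, 507 bp, and covered 0.316% of this long gene. The peak included the most downstream of 6 annotated starts, at 23821156, which is the window printed above. Its fold enrichment was 5.90 and its −log10 p 10.3, well above those of the 4 short genes. The nearest EV peak was 63.9 kb beyond the gene, and the nearest peak of the list without genotype 330 kb.

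TENM3 is the longest of the genes, 181447613 to 182803024 on chromosome 4, 1355412 bp, on the plus strand. Among the 69 protein-coding genes of at least 1 Mb, 69.6% had a KD peak, so a peak somewhere in a gene of this length is common. The EV list had 4 peaks in it and the KD list 2, covering 0.243% and 0.176% of the gene. The KD peak at 182701474 to 182702861 was 1388 bp wide and contained the whole EV peak at 182701784 to 182702515. Its fold enrichment was 4.0 in the KD list, and that of the EV peak was 4.25 in its own list.

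The other KD peak of TENM3, 182799479 to 182800471, lay 2553 bp before the 3′ end of the gene and 350 kb from the nearest annotated start. It was 993 bp wide, and its fold enrichment of 7.36 and −log10 p of 12.5 were the highest of the 7 peaks. The nearest EV peak, at 182755896 to 182756957, was 42.5 kb away, with a −log10 p of 9.10 in its list. The remaining EV peaks lay further toward the middle of the gene. The one at 182142304 to 182142832 sat 1131 bp upstream of an annotated start, inside the antisense gene TENM3-AS1, and the one at 182201407 to 182202377 lay 57.4 kb downstream of that start. The KD list had no peak within 499 kb of either. The list without genotype had no peak in TENM3, and its nearest one was 206 kb from the gene.

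**Figure D3:**
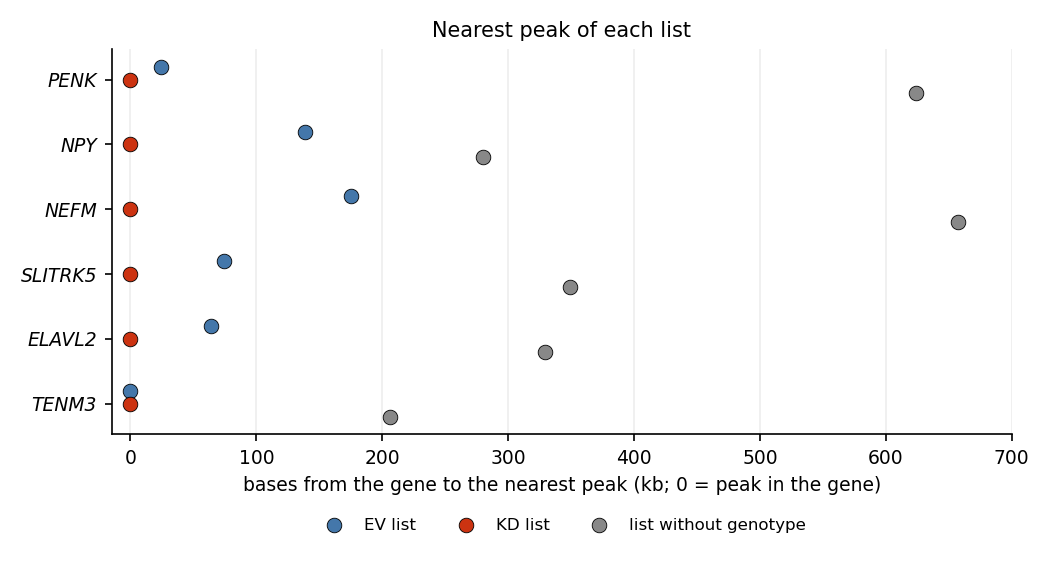
Distance in kb from each gene (y axis) to the nearest peak of the EV list (blue), the KD list (red) and the list without genotype (grey), where 0 is a peak inside the gene. KD is at 0 for all 6 genes, EV at 0 for TENM3 and up to 175 kb elsewhere, and the list without genotype between 206 and 658 kb.

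In PENK, NPY, NEFM and ELAVL2, a KD peak covered or came within 129 bp of an annotated start or the 5′ end of the gene. For ELAVL2 this was the most downstream of 6 annotated starts, and the peak lay 29.4 kb from the 5′ end. The SLITRK5 and TENM3 peaks lay away from the annotated starts. In a short gene any peak lies near an end, and the choice by covered share favoured short genes, so the position is not independent of the choice. Of the other genes of 5 to 10 kb with a KD peak, neither other peak and an annotated start in the table, 6 of 12 had the peak within 1 kb of their own start. For EV peaks in genes of this size it was 60 of 142 (42.3%). Over genes of all lengths, for the KD peaks overlapped by neither other list that lay in protein-coding genes on chromosomes with annotated starts, 120 of 550 were within 1 kb of a start (21.8%, exact Clopper-Pearson 95% interval 18.4 to 25.5). Of KD peaks overlapped by EV, the share was 11.7% (10.4 to 13.2) of 2141. It was 6.42% (5.88 to 7.0) of 7553 for all EV peaks and 3.25% (2.54 to 4.09) of 2155 for the list without genotype. Chromosome 8, which holds PENK and NEFM, is in none of these counts. The intervals cover counting error over peaks only.

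In strength, the 7 KD peaks spread over much of the KD list. Their −log10 p ran from 4.33 to 12.5 with a median of 5.54, against a median of 4.98 for all KD peaks. Their fold enrichment ran from 3.44 to 7.36 with a median of 4.46, against 3.68 for the list. Their width ran from 507 to 1594 bp, with a median of 993 bp against 1016 bp for the list. SLITRK5, NEFM and the shared TENM3 peak stood at percentiles 32.8, 36.3 and 35.5 of the list by −log10 p. PENK and NPY stood at 60.6 and 60.9, ELAVL2 at 88.2 and the TENM3 peak near the 3′ end at 91.3. By fold enrichment, ELAVL2 and the latter TENM3 peak were higher still, at 96.1 and 98.6.

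**Figure D4:**
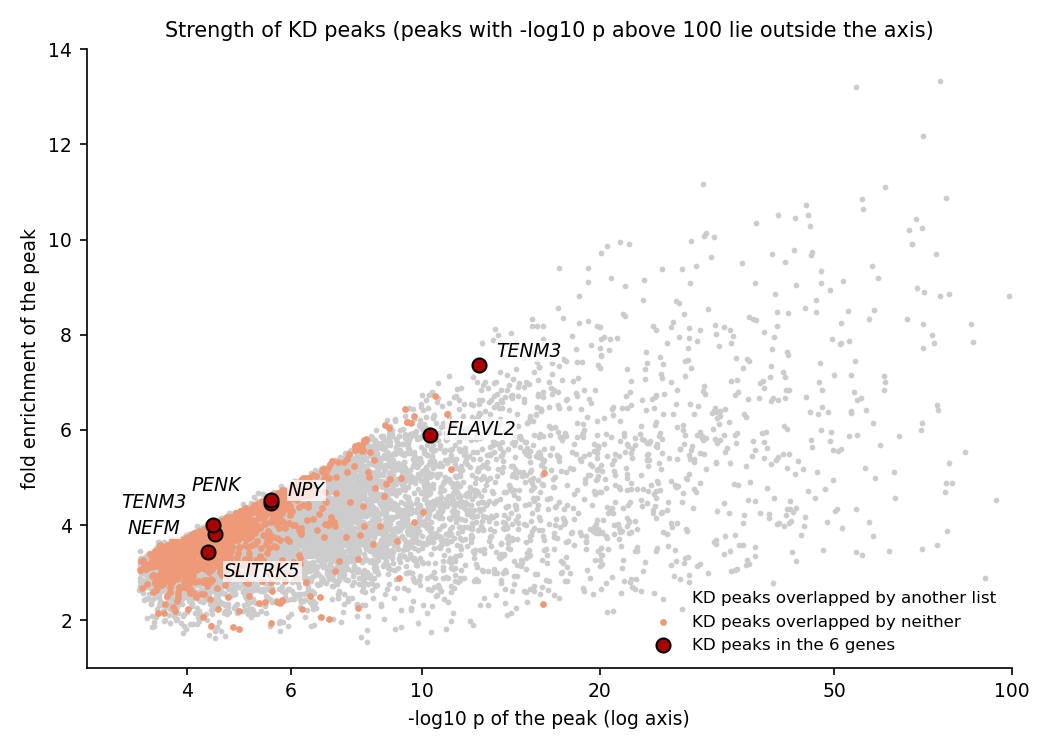
Fold enrichment (y axis) against −log10 p (x axis, log scale) of KD peaks overlapped by another list (grey) or by neither (orange), with the 7 peaks in the 6 genes in dark red. NEFM, SLITRK5 and the shared TENM3 peak lie among the weak peaks, and ELAVL2 and the other TENM3 peak lie where few orange points remain.

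Strong KD peaks seldom lacked an EV partner. Of KD peaks with a −log10 p of 4 to 5, where NEFM, SLITRK5 and the shared TENM3 peak fall, EV overlapped 84.1% (82.9 to 85.2). At 5 to 6, where PENK and NPY fall, the share was 88.6% (87.1 to 89.9). At 10 to 15, where ELAVL2 and the TENM3 peak near the 3′ end fall, it was 98.7% (97.5 to 99.4) of 692 peaks. The list without genotype overlapped 41.3%, 45.3% and 62.4% of the KD peaks in these ranges, so a missing partner there was common. Of the 1489 KD peaks at least as strong as that of ELAVL2, 8 were overlapped by neither other list. Of the 1100 at least as strong as that of TENM3, 3 were. By fold enrichment, the TENM3 peak was the only 1 of 173 KD peaks at or above its value that neither list overlapped. For PENK and NPY these counts by −log10 p were 229 of 4978 and 224 of 4950, and for NEFM and SLITRK5 587 of 8054 and 650 of 8500. The genes were chosen as marked in the KD list, and each cut-off is the value of the gene's own peak. The counts run over all KD peaks, inside and outside genes. They are therefore a description, and no rarity is read from them.

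**Figure D5:**
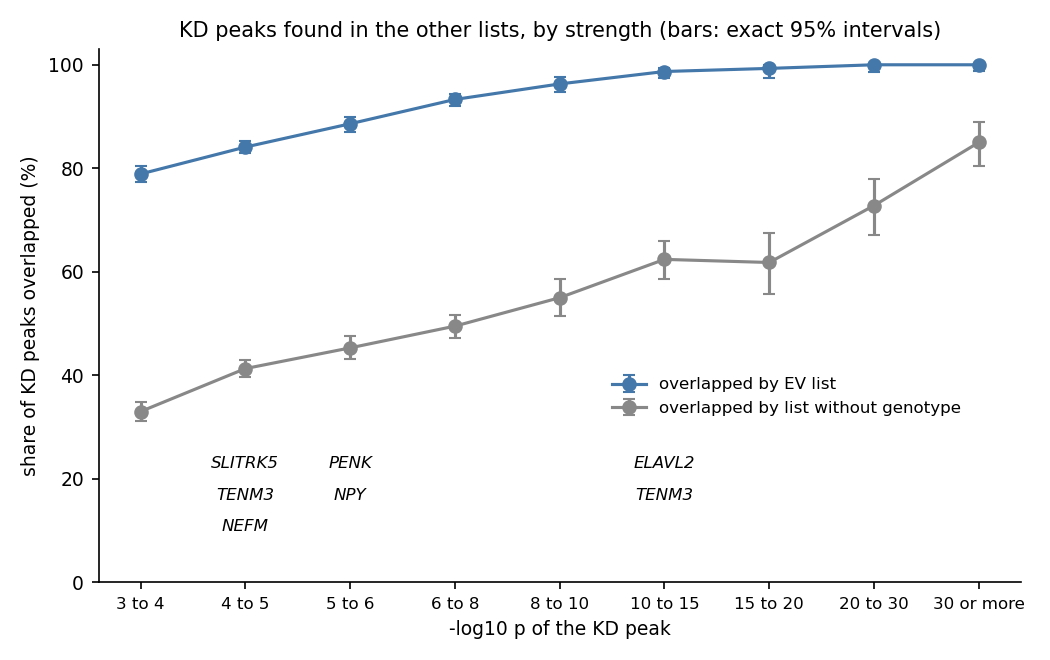
Share of KD peaks overlapped by the EV list (blue) and by the list without genotype (grey), in percent, by −log10 p of the KD peak, with exact 95% intervals. Gene names stand below the range that holds each KD peak of the 6 genes, and the EV share rises from 78.9% to 100%.

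The next KD peak was 259 kb away for PENK, 510 kb for NPY, 1211 kb for NEFM, 301 kb for SLITRK5 and 314 kb for ELAVL2, and the pair in TENM3 lay 96.6 kb apart. Over all 12650 KD peaks the median gap to the next was 8.20 kb. A smaller gap than that of the TENM3 pair was found for 74.2% of them, and the other 5 genes stood between 86.7% (PENK) and 99.2% (NEFM). Over the 1370 KD peaks that neither other list overlapped the median was 100 kb, and on that scale the TENM3 pair stood at 49.1% and the other 5 genes between 71.9% and 97.7%. Within 1 Mb of the gene, NPY had 14 EV peaks, 2 KD peaks and 2 peaks of the list without genotype. PENK had 8, 4 and 2 in the same order, SLITRK5 had 10, 4 and 2, and NEFM had 3, 1 and 1. Around ELAVL2 the order of EV and KD was turned, with 3, 4 and 2. TENM3 had 17, 10 and 2. Over the 6 genes this gives 55 EV peaks, 25 KD peaks and 11 of the list without genotype. How these numbers compare with other stretches of like length was not tested.

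The nearest protein-coding genes on either side of the 6 genes, 12 in all, had an EV peak in 3 cases, a KD peak in 2 and a peak of the list without genotype in 2. Among all protein-coding genes the shares were 24.5%, 11.5% and 7.26%, and nothing is read from counts this small. The neighbours lay between 31.9 kb (NEFL from NEFM) and 4005 kb (AGA from TENM3) away. STK31, 452 kb below NPY, and GPC5, 3719 kb above SLITRK5 and 1469 kb long, carried peaks in all 3 lists. ADAM7, 404 kb below NEFM, had an EV peak alone. SDR16C5 and BPNT2 (121 and 511 kb from PENK) and PALS2 (282 kb from NPY) had none. Nor had DMRTA1 and IZUMO3 (1234 and 692 kb from ELAVL2) or AGA and DCTD (4005 and 87.1 kb from TENM3). LOC124903229, 43.0 kb from SLITRK5, had none either.

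Among genes short enough for a peak to cover a large share, 4 of the 6 stood near the top. Protein-coding genes of at least 5 kb with a KD peak and no peak of the other lists numbered 225. Ranked by the share of the gene covered, SLITRK5 was number 2, PENK 3, NPY 4 and NEFM 7, and ELAVL2 was number 182. Of the 2498 protein-coding genes of 5 to 10 kb, the size of PENK, NPY, NEFM and SLITRK5, 28 (1.12%) had a KD peak and neither other. Covered share was among the values that chose these genes, so the ranks are a description.

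Besides the 6, the related lists held 89 genes, of which 22 had an EV peak in the gene body (24.7%), 14 a KD peak (15.7%) and 6 a peak of the list without genotype (6.74%). A KD peak without an EV peak was found in 2 of the 89, TRH and PRPH (2.25%), and in 1.64% of all protein-coding genes, which is close. An EV peak without a KD peak was found in 10 of the 89, against 14.7% of all protein-coding genes. The 89 genes had a median length of 9.77 kb, against 24.1 kb for all protein-coding genes. Shares here and in the lists below were not adjusted for length, and a longer gene has more room for a peak. The KD peaks in these genes numbered 16, and 14 of them were overlapped by EV.

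Of the 42 neuropeptide precursors other than PENK and NPY, 3 had a KD peak, 6 an EV peak and 1 a peak of the list without genotype (7.14%, 14.3% and 2.38%), against 11.5%, 24.5% and 7.26% of all protein-coding genes. The precursors were not matched to those genes for length, so no depletion is read from these shares. TRH, the precursor of thyrotropin-releasing hormone, had a KD peak of 309 bp over its annotated start, with 3.52-fold enrichment at a −log10 p of 3.82, and the nearest EV peak was 184 kb away. CCK, the cholecystokinin gene, was covered to 29.3% by EV and 16.0% by KD, also over a start, and UCN3, a urocortin gene, to 13.8% and 13.5%. TAC1, the substance P precursor, TAC4, PYY and ADCYAP1 had an EV peak and no KD peak, and NMU had a peak in the list without genotype alone. Of 8 receptor genes of the opioid and neuropeptide Y families, OPRK1 had a peak in both EV and KD and OPRL1 in EV. OPRM1 and OPRD1 had no peak in any list. Of 11 genes for the processing and storage of neuropeptides, 3 had an EV peak and 2 a KD peak, and PAM and SCG5 had both.

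Of the 8 intermediate filament genes other than NEFM, 3 had a KD peak and 2 an EV peak, against 11.5% and 24.5% of all protein-coding genes. PRPH, the peripherin gene, had a KD peak of 333 bp with 3.66-fold enrichment at a −log10 p of 5.51, 347 bp from its start, and the nearest EV peak was 4.52 kb away. INA, the internexin gene, was covered to 8.49% by EV and 5.47% by KD, with overlapping peaks near the start, and SYNM, the synemin gene, to 2.34% and 2.92%. Of the SLITRK genes, SLITRK4 had 14.7% in EV and 10.5% in KD, SLITRK2 had 5.58% and 5.21%, and SLITRK1 had 15.8% in EV with no KD peak. No other SLITRK gene had a KD peak without an EV peak. PTPRD, which encodes a presynaptic partner of these proteins, had 5 EV peaks and 2 KD peaks, and PTPRS had 1 EV peak.

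The other ELAVL genes, 3 in number, had no peak in any list. Among teneurin, latrophilin and FLRT genes, TENM1 had 3 EV peaks, 1 KD peak and 2 peaks of the list without genotype. TENM2 and TENM4 had 2 and 4 peaks in the list without genotype and none in EV or KD, which is the reverse of TENM3. ADGRL3, a latrophilin gene, had 4 EV peaks, 2 KD peaks and 2 of the list without genotype. FLRT2 had 2 EV peaks and ADGRL2 had 1, with none in KD.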

How the data were processed

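Per the submitters' processing notes, reads were aligned with Bowtie2 and peaks called with MACS2 on GRCh38. The sources used here give neither options, control libraries nor pooling. The 3 deposited lists have no header. Each peak's fold enrichment (a ratio over the caller's background), −log10 p and −log10 q are the authors' values. The display score the authors deposited is 10 times the −log10 q and was not used.

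Peaks on chromosomes 1 to 22, X and Y were compared by position, counted from 1, with overlap of at least 1 bp. Genes came from a RefSeq table of GRCh38.p14 with no strand or exons; starts and strand came from RefSeq promoter windows. The directions of PENK and NEFM are textbook knowledge. A gap is the number of bases between 2 intervals. Intervals of shares are exact (Clopper-Pearson, 95%), from scipy 1.17.1.

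The members and the gene lists were chosen with earlier results of these data known. Named genes are the 6 genes, their nearest protein-coding neighbours and, of each related list, genes with a KD and no EV peak plus up to 4 others with the largest covered share; a few others with peaks are named because of their values. Python 3.11.15, pandas 2.3.3, numpy 2.4.6 and matplotlib 3.10.9 were used. Interval functions were tested on simulated data and gave the counts of bedtools 2.31.1.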

Additional observations from a re-analysis of the deposited data

How the results depend on the processing

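Of 45 values recomputed, 40 stayed within 1.5 times the main count. Requiring a −log10 q of at least 2 left 3 EV and 4 KD peaks within 50 kb, and 0 KD peaks overlapped by EV, since the shared KD peak of TENM3 fell below it. A fold enrichment of at least 4 left 2 EV peaks within 50 kb, and limiting each list to its 12650 strongest peaks also left 2. Genes with a KD peak went from 6 to 4 under either the stricter −log10 q or the stricter fold enrichment, which removed NEFM and SLITRK5. The count stayed at 6 under merging of peaks within 3 kb, equal peak numbers and 2 kb added to the gene ends. These settings could not lower it. The KD list is the shortest and was left whole at 12650 peaks, and merging or added ends take away no marked base. The list without genotype had 0 peaks near the 6 genes under every alternative, including a window of 100 kb. None of the alternatives could change this, since its nearest peak lay 206 kb from a gene. These zeros and the KD counts that could not fall are among the 40 values that stayed. That number therefore says little about the list without genotype or about those KD counts. Depth is unknown, so an absent peak cannot be told apart from one missed.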

Other observations

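The KD peaks of ELAVL2 and TENM3 belong to 8 KD peaks that neither other list overlapped and that were at least as strong, by −log10 p, as that of ELAVL2. These 8 were looked up after the values were seen. The strongest were a peak over the non-coding genes LINC01191 and LINC02992 on chromosome 2, with a −log10 p of 16.1 and a fold enrichment of 5.10, and a peak outside genes on chromosome 5, with 16.1 and 2.34. TENM3 came next with 12.5. Below it were peaks in GRK1 on chromosome 13 (11.3), at KCNQ1OT1 within KCNQ1 on chromosome 11 (11.2), in CDKN2A on chromosome 9 (11.0), and outside genes on chromosome 13 (10.5). The distance to the nearest EV peak ran from 7.31 kb at GRK1 to 345 kb on chromosome 13.

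By the median, promoter windows under KD peaks and under EV peaks held more CG dinucleotides than windows at large. The 388 windows overlapped by KD had a median of 26.0. Those overlapped by KD and by neither other list, 140 in number, had a median of 27.0, and the printed ELAVL2 window is one of them. The median was 22 for the 603 windows overlapped by EV, 15 for the 126 overlapped by the list without genotype and 14 over all windows. These medians describe 1 library each, and what sets them was not tested.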
